A study of Homo sapiens with 4 samples.

Results

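Transcripts of 10 genes of the insulin and FOXO pathway were followed in the human leukemia line NALM6, which grew out from precursors of B cells. They are the genes of the transcription factors FOXO1, FOXO3 and FOXO4, of the insulin receptor (INSR) and its substrates IRS1 and IRS2, and 4 genes known to be repressed by insulin signalling or induced by FOXO factors, PIK3IP1, KLHL24, CITED2 and CCNG2. They were chosen by gene name, with earlier results of these data known, from the 20665 genes of the deposited table, which held all 10. The AICAR group is 2 libraries of cells deprived of glucose for 24 h and then given 15 mM AICAR for 45 min, and the vehicle group is 2 libraries of cells given DMSO for 45 min. Cells phosphorylate AICAR to a compound that resembles AMP, and this switches on AMPK, the kinase that senses low energy. The labels mention the period without glucose for AICAR cells and are silent on it for vehicle cells, so AICAR and glucose deprivation cannot be told apart here. The labels also do not say that replicates came from separate cultures, and the p-values then measure the spread between these libraries, which may be technical.

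Insulin binds its receptor, which phosphorylates IRS proteins. These recruit the lipid kinase PI3K, and the kinase AKT is activated at the membrane. AKT phosphorylates FOXO proteins, which then bind 14-3-3 proteins and leave the nucleus. Without insulin or growth factors FOXO proteins stay nuclear and induce genes of cell cycle arrest, stress resistance and metabolism, among them the genes of the receptor and of IRS2 in several tissues. AMPK also phosphorylates FOXO3, at sites of its own. In mouse B cell precursors FOXO1 is needed for expression of the recombinase genes and of the interleukin 7 receptor. FOXO activity is set mainly by phosphorylation, which transcript levels do not measure.

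The libraries held 32318376 and 34458010 expected counts with AICAR and 33919915 and 36769116 with vehicle. Markers of B cell precursors (9 of 10 listed were in the table) summed to 2769 and 2819 CPM (counts scaled to the depth of a library, here by its total) in AICAR libraries and to 2673 and 2620 in vehicle libraries. The markers of T cells (2 of 7 in the table), of myeloid and erythroid cells (7 of 10) and of stroma and epithelium (3 of 6) summed to at most 4.62 CPM in every library. Only 2 of each of these sets passed the filter on low counts and were tested, and none of those was called. No marker in the table was at 0 in all 4 libraries. Of the 9 B lineage genes 5 rose and 1 fell (19.4% and 19.7% of all genes tested). In a fit of genes of at least 10 CPM alone, 26.2% were called higher and 27.7% lower. The part of the B lineage genes in the results below was not tested.

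A pair of forkhead motifs was searched for on both strands of promoter windows of 300 bases, from 250 before to 50 after each start site, taken from RefSeq (GRCh38.p14) and matched by symbol for all 10 genes. They are GTAAACA, the core of the element that FOXO factors prefer, and CAAAACA, the core of the insulin response sequence. Of 35116 windows in the table, 3.42% held the first, 4.92% the second and 8.07% either. Among the 10 genes IRS2, KLHL24, FOXO4 and PIK3IP1 held 1 match each, in 1 window, and none of these matches overlapped another. FOXO3 had 4 windows, CITED2 3 and PIK3IP1 2, so a count of genes cannot be set against the shares of windows. The stretches below show the matches in capitals on the strand of the gene, where TGTTTTG and TGTTTAC are the reverse complements of the motifs. For IRS2 (chromosome 13, minus strand, chr13:109786584-109786703) and KLHL24 (chromosome 3, plus strand, chr3:183635503-183635622) they are the 120 bases before the start. The CITED2 stretch (chromosome 6, minus strand, chr6:139374649-139374768) and the INSR stretch (chromosome 19, minus strand, chr19:7294415-7294534), the genes with the largest fall and with the called rise, are shown for comparison and held neither motif.
IRS2: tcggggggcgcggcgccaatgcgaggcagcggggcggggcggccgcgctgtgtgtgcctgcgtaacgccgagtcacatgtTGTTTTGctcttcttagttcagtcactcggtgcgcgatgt
KLHL24: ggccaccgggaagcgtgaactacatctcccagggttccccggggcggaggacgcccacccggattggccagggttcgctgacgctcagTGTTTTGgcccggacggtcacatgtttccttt
CITED2: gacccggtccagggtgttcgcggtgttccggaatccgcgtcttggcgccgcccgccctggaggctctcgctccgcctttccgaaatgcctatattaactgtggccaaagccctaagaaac
INSR: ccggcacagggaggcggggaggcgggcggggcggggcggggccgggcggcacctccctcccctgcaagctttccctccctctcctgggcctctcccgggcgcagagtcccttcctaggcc

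The matches of FOXO4 (chromosome X, plus strand, chrX:71095863-71095891) and PIK3IP1 (chromosome 22, minus strand, chr22:31292455-31292483) lay after the start site, at positions 23 and 16, and are shown with 11 bases on either side. These matches describe the letters of the windows and do not show binding.
FOXO4: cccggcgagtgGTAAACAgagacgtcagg
PIK3IP1: taaagagaggcTGTTTACcagaacagcat

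With AICAR, FOXO1, IRS2, KLHL24, CITED2 and CCNG2 were lower, INSR was higher, and FOXO3, FOXO4, IRS1 and PIK3IP1 did not pass the test. The 5 falls and 1 rise among 10 genes stand beside 39.1% of all 13626 tested genes called changed, 19.7% lower and 19.4% higher (quasi-likelihood test of edgeR, p adjusted by Benjamini-Hochberg over all genes, BH below, threshold 0.05). Values of both groups did not overlap for 8 of the 10 genes, 6 with AICAR below and 2 above, against 69.2% of all genes tested, 34.9% below and 34.3% above. With total counts alone 1 member was higher and 5 were lower, in a fit that called 10.2% of all genes higher and 23% lower. With a trend on transcript length removed 2 were higher and 4 lower, beside 28.1% higher and 15.3% lower of all genes. Among protein-coding genes fitted alone 2 members were higher and 5 lower, beside 21.8% and 23.8% of those genes. Among genes of at least 10 CPM 1 of 5 members was higher and 3 were lower, beside 26.2% and 27.7% of those genes. The median log2 fold change of the 10 genes was -0.281 (-0.002 over all genes tested). Since the 10 genes were chosen with earlier results of these data known, these counts and the median describe them and test nothing. All 10 passed the filter on low counts, and PIK3IP1 did so with both vehicle libraries and 1 of the AICAR libraries above the limit of 0.292 CPM. In RNA of a whole culture, fewer cells that express a gene and less RNA per cell cannot be told apart.

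The authors' deposited table gives a q-value for 9 of the 10 genes, with 5 changed, 1 higher and 4 lower, at a q-value under 0.05, against 25.8%, 13.3% and 12.5% of the genes with a q-value. In the authors' deposited table the log2 fold changes were -0.35 for FOXO1 (q = 2.46e-05), -0.68 for IRS2 (q = 0.000433), -1.15 for CITED2 (q = 2.06e-09), -0.45 for CCNG2 (q = 0.00769) and 0.21 for INSR (q = 0.0156). KLHL24 (-0.18, q = 0.188) and FOXO4 (0.26, q = 0.285) did not pass there, and PIK3IP1 has no q-value in the authors' deposited table. DESeq2 run here gave adjusted p-values close to those q-values (IRS2 0.000459, CITED2 2.71e-09), yet larger changes for these genes, -0.92 and -1.63. For FOXO1 (-0.36) and INSR (0.22) its changes were near the deposited ones. Why the sizes differ was not tested, so a smaller deposited change is not read as a weaker effect.

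**Figure D1:**
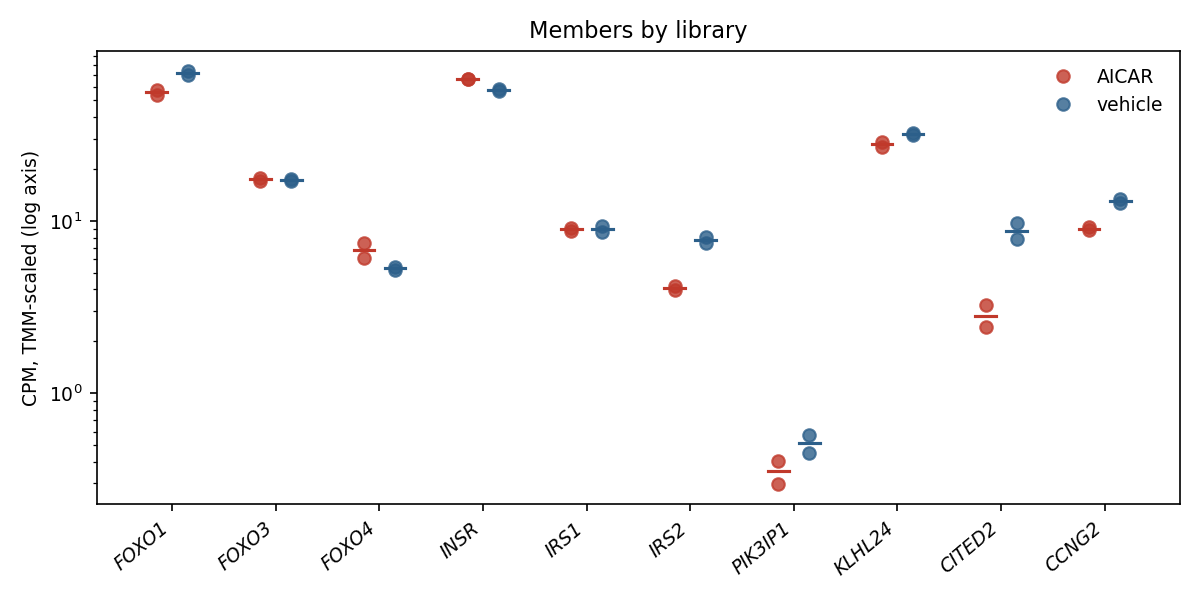
CPM (scaled by TMM factors, log axis) of the 10 genes in each library, AICAR in red and vehicle in blue, with the mean as a bar. CITED2 and IRS2 show the widest gaps between groups, at 2.82 against 8.78 and 4.07 against 7.72 CPM on average, and the points of FOXO3 and IRS1 overlap.

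Among the FOXO genes, FOXO1 (ENSG00000150907) was the most abundant and the gene that fell. It had 57.6 and 53.8 CPM in AICAR libraries, against 73.5 and 70.3 CPM in vehicle libraries (CPM is a count relative to the TMM-scaled total of its library). Both AICAR values lay below both vehicle values. The mean was 55.7 ± 2.69 CPM with AICAR and 71.9 ± 2.26 CPM with vehicle (SD, n = 2 each). The log2 fold change was -0.37 (SE 0.0477, edgeR, BH-adjusted p = 0.000129). It was called lower under each of 17 alternative settings, with log2 fold changes from -0.43 to -0.29.

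FOXO3 (ENSG00000118689), the FOXO factor that AMPK phosphorylates, had 17.7 and 17.1 CPM in AICAR libraries, against 17.6 and 17.0 CPM in vehicle libraries. The groups overlapped, and the log2 fold change was 0.008 (SE 0.0677, edgeR, BH-adjusted p = 0.941), with a sign that changed between settings. In FPKM its values were 3.46 and 3.36 with AICAR and 3.12 and 2.84 with vehicle, which do not overlap, and limma on log2(FPKM + 0.1) did not call the difference. Its deposited counts are not whole (564.13 and 571.65 with AICAR, 619.82 and 626.08 with vehicle), and the near-identical pseudogene FOXO3B, with 57.17 and 60.75 counts in AICAR and 51.63 and 53.06 in vehicle libraries, can share its reads. Both values are therefore uncertain.

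FOXO4 (ENSG00000184481) had 6.07 and 7.39 CPM in AICAR libraries, against 5.18 and 5.41 CPM in vehicle libraries. The AICAR values lay above the vehicle values but apart from each other, and the log2 fold change of 0.35 ± 0.129 (SE) missed the threshold (edgeR, BH-adjusted p = 0.0525). It was called higher under 5 of 16 alternatives, among them without AICAR replicate 1 (0.48, adjusted p = 0.0073), and not with DESeq2 (0.35, adjusted p = 0.286). Without AICAR replicate 2 the log2 fold change was 0.20 (adjusted p = 0.392). FOXO6, another gene of the family, had 3.26 and 2.90 CPM with AICAR and 4.10 and 3.13 CPM with vehicle, which overlap, and did not pass.

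Within a library the mix of FOXO transcripts can be read from the deposited FPKM values (fragments per kilobase of transcript, scaled to depth), which do not need scaling between libraries for a share. FOXO1 made up 61.7% and 59.2% of the summed FPKM of the 3 genes in AICAR libraries, against 71.2% and 70.4% in vehicle libraries. FOXO3 made up 21.2% and 20.1% with AICAR and 16.4% and 16.1% with vehicle. The FOXO4 share was 17.1% and 20.7% with AICAR and 12.3% and 13.5% with vehicle. The sum itself was 16.3 and 16.7 FPKM in AICAR libraries and 18.98 and 17.65 FPKM in vehicle libraries. Thus, in FPKM, FOXO1 remained the major FOXO transcript in every library, with a smaller share in both AICAR libraries. FOXO3 was higher with AICAR in FPKM (3.46 and 3.36 against 3.12 and 2.84). In CPM it was not (17.7 and 17.1 against 17.6 and 17.0). The size of the shift in these shares, and in the ratio to FOXO3, therefore depends on the measure. The FPKM ratio of FOXO1 to FOXO3 was 2.91 and 2.94 with AICAR and 4.33 and 4.38 with vehicle. No test was made of these shares and ratios.

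**Figure D2:**
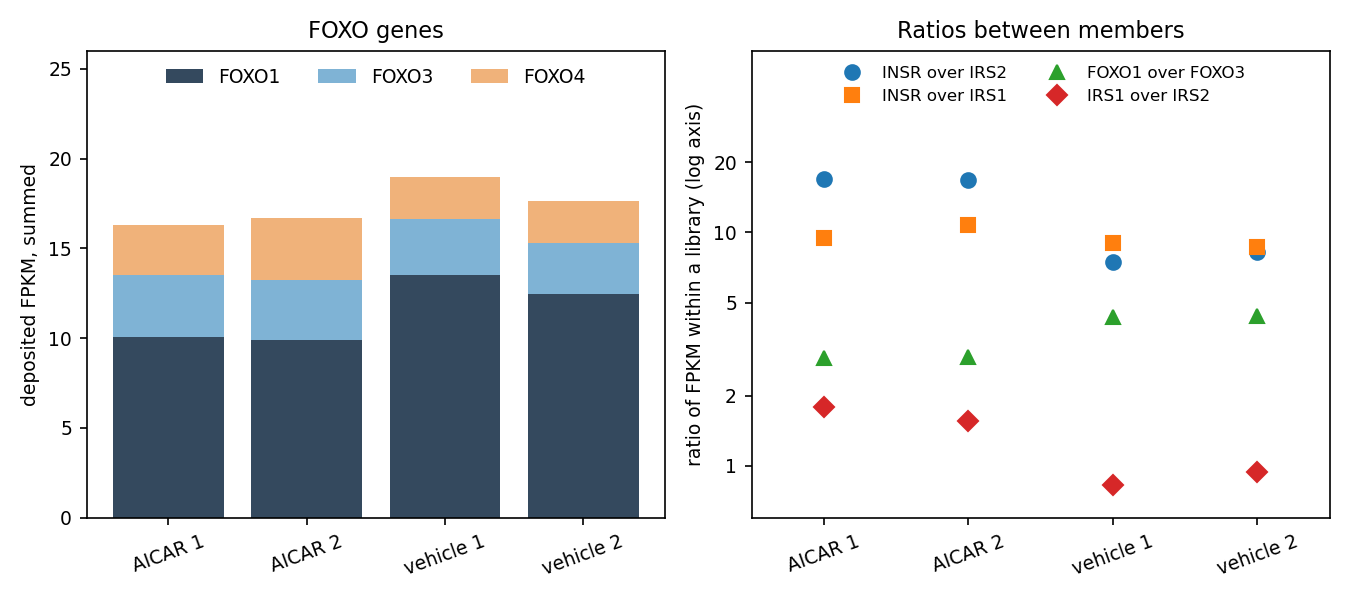
Left, deposited FPKM of FOXO1, FOXO3 and FOXO4 stacked for each library. Right, ratios of FPKM between pairs of genes within a library (log axis). FOXO1 over FOXO3 is near 2.9 in both AICAR libraries and above 4.3 in both vehicle libraries, and INSR over IRS2 is 16.9 and 16.8 with AICAR and 7.47 and 8.21 with vehicle.

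Of the receptor and its substrates, INSR rose, IRS2 fell and IRS1 did not pass the test. INSR (ENSG00000171105), the tyrosine kinase receptor for insulin, had 66.5 and 66.1 CPM in AICAR libraries, against 56.6 and 57.9 CPM in vehicle libraries. Both AICAR values lay above both vehicle values. The log2 fold change was 0.21 (SE 0.0419, edgeR, BH-adjusted p = 0.00199), a rise of 1.16-fold. On the deposited FPKM values, 9.99 and 9.4 with AICAR and 9.04 and 8.79 with vehicle, the difference was smaller and not called (limma on log2(FPKM + 0.1), log2 fold change 0.12, adjusted p = 0.426).

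IRS2 (ENSG00000185950), a docking protein that links the receptor to PI3K, had 4.16 and 3.98 CPM in AICAR libraries, against 8.04 and 7.39 CPM in vehicle libraries. Both AICAR values lay well below both vehicle values. The log2 fold change was -0.92 (SE 0.12, edgeR, BH-adjusted p = 0.000134), or 1.90-fold lower. The deposited count was 133.1 in both AICAR libraries, and 284 and 272 with vehicle. It was called under all 16 alternatives that tested it, with log2 fold changes from -0.99 to -0.44, the smallest on log2(FPKM + 1).

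IRS1 (ENSG00000169047), the other widely expressed docking protein, had 9.14 and 8.67 CPM in AICAR libraries, against 9.29 and 8.61 CPM in vehicle libraries. The groups overlapped, and the log2 fold change was -0.01 (SE 0.0945, edgeR, BH-adjusted p = 0.964). Per length the order of both substrates differed between the groups. The FPKM ratio of IRS1 to IRS2 was 1.78 and 1.55 in AICAR libraries, against 0.826 and 0.944 in vehicle libraries. INSR exceeded IRS1 9.51-fold and 10.8-fold with AICAR and 9.04-fold and 8.7-fold with vehicle.

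Of the 4 target genes, CITED2 (ENSG00000164442) changed most. It encodes a protein that binds the coactivators CBP and p300 and restrains HIF-1. It had 2.41 and 3.23 CPM in AICAR libraries, against 9.77 and 7.80 CPM in vehicle libraries. Both groups were spread, yet the highest AICAR value was below the lowest vehicle value. The mean of 2.82 ± 0.579 CPM with AICAR and 8.78 ± 1.39 CPM with vehicle (SD, n = 2 each) gave a fold change of -1.63 on the log2 scale (SE 0.164, edgeR, BH-adjusted p = 2.01e-05), or 3.10-fold lower. A fall of at least 2-fold was called for 3.57% of all tested genes.

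CCNG2 (ENSG00000138764), an unconventional cyclin linked to cell cycle arrest, had 8.86 and 9.15 CPM in AICAR libraries, against 12.6 and 13.5 CPM in vehicle libraries. The groups were apart, and this gave a log2 fold change of -0.53 (SE 0.0841, edgeR, BH-adjusted p = 0.000487), and it was called under each of 17 alternatives. Its relatives CCNG1 and CCNI had log2 fold changes of -0.07 (edgeR, BH-adjusted p = 0.186) and 0.18 (adjusted p = 0.00298). CCNI rose, but was not called with total counts alone (0.12, adjusted p = 0.0865). CCNG1 had a value of 0.15 on FPKM and was called lower among genes of at least 10 CPM (-0.10, adjusted p = 0.027).

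KLHL24 (ENSG00000114796), a substrate adaptor of a CUL3 ubiquitin ligase, had 28.7 and 26.9 CPM in AICAR libraries, against 31.3 and 32.3 CPM in vehicle libraries. The groups did not overlap, but the gap was narrow. The log2 fold change was -0.19 (SE 0.0568, edgeR, BH-adjusted p = 0.018). The call was lost under 7 of 17 alternatives, among them without AICAR replicate 2 (-0.14, adjusted p = 0.157), with DESeq2 (-0.19, adjusted p = 0.189) and with the trend on transcript length removed (-0.06, adjusted p = 0.442). Its FPKM values, 11.6 and 9.56 with AICAR and 14.4 and 11.4 with vehicle, overlapped. KLHL6, another gene of the kelch-like family, averaged 52.7 ± 2.05 CPM with AICAR and 59.5 ± 0.74 CPM with vehicle (SD, n = 2 each, log2 fold change -0.17, edgeR, BH-adjusted p = 0.0105), a call lost without AICAR replicate 2 (-0.13, adjusted p = 0.108).

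PIK3IP1 (ENSG00000100100), a membrane protein that inhibits the PI3K catalytic subunit, was near the limit of detection. It had 13 and 10 counts in AICAR libraries, against 16 and 21 counts in vehicle libraries. The log2 fold change of -0.54 ± 0.438 (SE) did not pass (edgeR, BH-adjusted p = 0.37). It ranged from -0.77 without AICAR replicate 1 to -0.33 without AICAR replicate 2, and was called in neither.

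**Figure D3:**
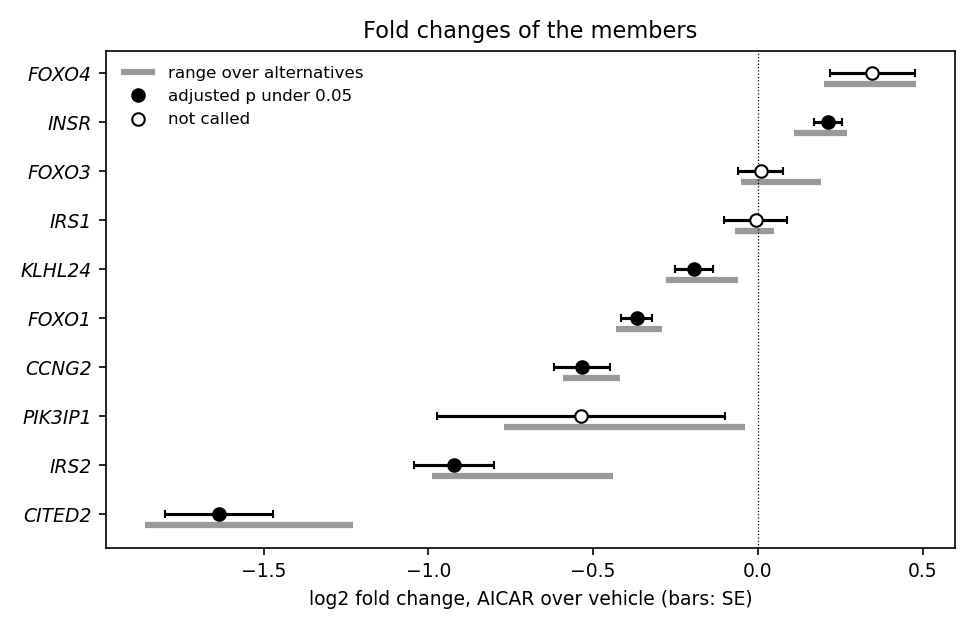
Log2 fold change of each gene, AICAR over vehicle, with its SE (black), filled where the edgeR adjusted p is under 0.05, and the range over the alternative settings in grey below it. The ranges of FOXO1, IRS2, CITED2 and CCNG2 stay below 0 with a call under every alternative that tested them, while those of FOXO3 and IRS1 cross 0.

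Per length, KLHL24, FOXO1 and INSR were the highest of the 10 genes in both groups, with mean FPKM of 10.6, 9.97 and 9.69 with AICAR and of 12.93, 12.97 and 8.91 with vehicle. KLHL24 and FOXO1 overlapped in both groups, and INSR overlapped with both in the AICAR libraries. CCNG2 followed with 4.79 FPKM with AICAR and 7.26 with vehicle. FOXO3 (3.41 with AICAR and 2.98 with vehicle) and FOXO4 (3.12 and 2.36 in the same order) came next, overlapping each other with AICAR. CITED2 ranked 7 with AICAR, at 1.51 FPKM, and 5 with vehicle, at 4.91 FPKM. IRS1, IRS2 and PIK3IP1 were lowest, at 0.96, 0.575 and 0.21 FPKM with AICAR and 1.005, 1.14 and 0.24 with vehicle.

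Most of the 10 genes have long transcripts, 8 of them above the median of 3274 bases, and long 3′ ends. In GENCODE 29, matched by gene ID, 9 of them had a 3′ untranslated region longer than the median of 1326 bases over 11118 tested protein-coding genes, taking for each gene the transcript where it is longest, and CITED2 was at the median with 1325. The pentamer ATTTA, the core of AU-rich elements that bind mRNA decay factors, was counted there. Its density exceeded the median of 1.64 per kb in 7 of the 10, among them all 5 genes that fell (KLHL24 3.66, IRS2 3.05, FOXO1 2.37, CITED2 2.26 and CCNG2 2.18) and also INSR (2.08), which rose, and IRS1 (2.62). FOXO4 (0.689), FOXO3 and PIK3IP1 (1.2 each) were below it. Neither the length nor the pentamer was tested against the fold changes. The numbers of exons ranged from 2 in IRS1, IRS2 and CITED2 to 21 in INSR.

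Upstream of FOXO, genes of the relay from receptor to AKT moved in both directions. Of 37 tested genes from a list of 39 receptor adaptors, PI3K subunits, kinases, phosphatases and AKT substrates, 14 rose and 6 fell (19.4% and 19.7% of all genes), with a median log2 fold change of 0.067. AKT1, the AKT kinase gene with the larger change, had 103 and 108 CPM in AICAR libraries, against 88.0 and 81.3 CPM in vehicle libraries (log2 fold change 0.32, SE 0.0472, edgeR, BH-adjusted p = 0.000306). AKT2 rose by 0.24 on the log2 scale.

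The 4 listed genes of mTORC2, the complex that phosphorylates AKT, were all called, 3 higher and 1 lower (19.4% and 19.7% of all genes). RICTOR, its defining subunit and itself a known FOXO target, had 12.9 and 14.3 CPM in AICAR libraries, against 19.0 and 19.97 CPM in vehicle libraries (log2 fold change -0.52, SE 0.0756, edgeR, BH-adjusted p = 0.000291). MTOR, MAPKAP1 and MLST8 rose by 0.32, 0.18 and 0.15 on the log2 scale, and the value of MTOR was 0.21 without vehicle replicate 2. On FPKM values (limma on log2(FPKM + 0.1)) none of these 3 rises was called (MTOR 0.21, limma adjusted p = 0.28). Of 10 receptor and adaptor genes tested, 4 rose and 1 fell (19.4% and 19.7% of all genes). The fall was that of the docking protein gene GAB1 (log2 fold change -0.32, edgeR, BH-adjusted p = 0.000273), and IGF1R, the receptor gene closest to INSR, had 0.05 (adjusted p = 0.613).

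Among 8 PI3K subunit genes 1 rose and 2 fell, near the shares of all genes (19.4% and 19.7%). For PIK3CA, which encodes a catalytic subunit, the log2 fold change was -0.25 (edgeR, BH-adjusted p = 0.0152), a call lost without AICAR replicate 2 (-0.13, adjusted p = 0.159), and the regulatory subunit gene PIK3R1 had -0.02 (adjusted p = 0.775). Of 5 phosphatase genes that oppose the pathway 2 rose and 1 fell (19.4% and 19.7% of all genes). INPPL1, the lipid phosphatase SHIP2, rose by 0.33 on the log2 scale (edgeR adjusted p = 0.000172), and was not called on FPKM values (0.25, limma adjusted p = 0.29). Of the whole relay list 9 genes rose and 6 fell under scaling by total counts alone (10.2% and 23% of all genes), and 19 rose and 3 fell with the length trend removed (28.1% and 15.3% of all genes). On FPKM values (limma on log2(FPKM + 0.1)) 1 gene of that list rose, AKT1, and 1 fell, RICTOR (4.34% and 9.43% of all genes). At 10 CPM or more 11 of 31 genes of that list rose and 5 fell (26.2% and 27.7% of all genes in that fit).

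Genes whose products act on FOXO proteins were called in equal numbers each way, 6 higher and 6 lower of 22 listed and tested (19.4% and 19.7% of all genes, median 0.025). SIRT1, a deacetylase of FOXO proteins, had 24.8 and 24.6 CPM in AICAR libraries, against 34.7 and 31.4 CPM in vehicle libraries (log2 fold change -0.42, SE 0.0624, edgeR, BH-adjusted p = 0.000341). The kinase gene DYRK1A fell by 0.46 on the log2 scale. The related deacetylase gene SIRT2 and the acetyltransferase gene CREBBP rose by 0.23 and 0.34, and PRMT1, an arginine methyltransferase, had 0.18, which was not called without AICAR replicate 2 (0.15, adjusted p = 0.0533). KAT2B, another acetyltransferase, had -0.36 (adjusted p = 0.0314) and lost its call without vehicle replicate 1 (-0.26, adjusted p = 0.181) or AICAR replicate 1 (-0.31, adjusted p = 0.0984). On FPKM values SIRT2 (0.13, limma adjusted p = 0.212) and CREBBP (0.09, limma adjusted p = 0.672) were not called. Under scaling by total counts alone 3 of the 22 genes rose and 6 fell (10.2% and 23% of all genes). With the length trend removed 11 rose and 4 fell (28.1% and 15.3% of all genes). Of 7 genes for 14-3-3 proteins and nuclear export 2 rose and 1 fell (19.4% and 19.7% of all genes in the reported fit).

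Other known FOXO targets were mostly lower where they were called. The list was chosen with earlier results of these data known, so its counts describe the list and test nothing. Of 38 listed genes 33 were in the table and 28 were tested, of which 13 fell and 2 rose (19.7% and 19.4% of all genes), with a median of -0.184, and both rises were lost with total counts alone, which left 13 lower and 0 higher (1390 higher and 3132 lower over all genes in that fit). At mean levels of 5 CPM or more the largest falls were those of KLF6, a zinc finger factor (log2 fold change -2.18), of CDKN1B, the cell cycle inhibitor p27 (-1.80), and of TXNIP, a thioredoxin-binding protein (-1.50). Below that level, KLF2, a zinc finger factor of resting lymphocytes, had 4 and 9 counts in AICAR libraries and 32 and 40 in vehicle libraries (-2.31), and GADD45B, a stress-induced gene, had 68 and 57 counts with AICAR and 279 and 244 with vehicle (-1.92). CDKN1B had 7.79 and 10.2 CPM in AICAR libraries, against 30.4 and 32.3 CPM in vehicle libraries. The genes SOD2 and CAT, for enzymes that detoxify superoxide and hydrogen peroxide, had 0.15 and 0.17, and the call of SOD2 was lost without AICAR replicate 2 as well (0.15, adjusted p = 0.0506).

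Of 6 lymphocyte genes in this list, chosen with earlier results known, 5 fell and none rose (19.7% and 19.4% of all genes). RAG1, a subunit of the V(D)J recombinase, had 299 and 297 CPM in AICAR libraries, against 391 and 388 CPM in vehicle libraries (log2 fold change -0.38, SE 0.0369, edgeR, BH-adjusted p = 1.45e-05). RAG2 and IL7R, the interleukin 7 receptor gene, fell by 0.23 and 0.21 on the log2 scale. FOXO1, CDKN1B and the RAG and IL7R genes were thus lower in the same libraries, while INSR, also a known FOXO target, was higher.

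**Figure D4:**
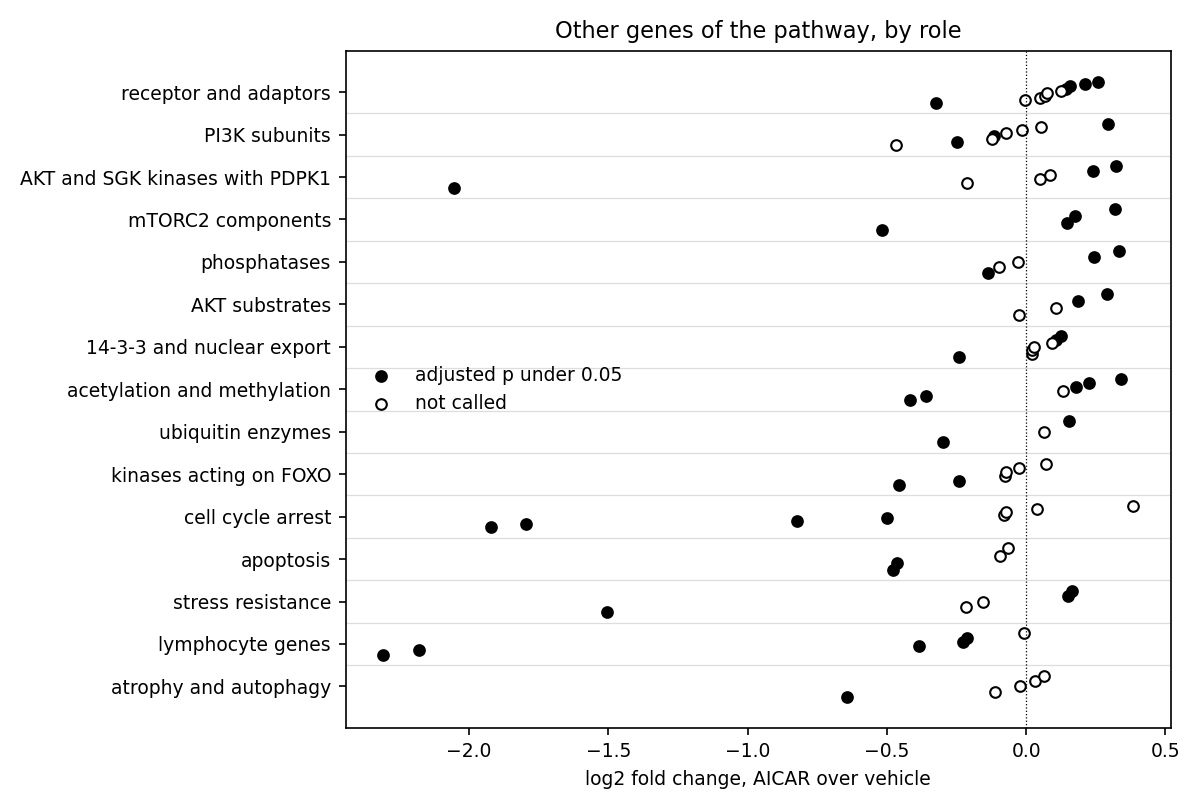
Log2 fold change, AICAR over vehicle, of each tested gene of the 3 other lists, grouped by role, filled where the edgeR adjusted p is under 0.05. Relay genes lie on both sides of 0, most within 0.5. Every called gene lies below 0 in the groups of cell cycle arrest (4 called of 8 tested), lymphocyte genes (5 of 6) and apoptosis (2 of 4). The same holds for atrophy and autophagy (1 of 5) and kinases acting on FOXO (2 of 6), where 19.7% of all genes were called lower. Among AKT substrates the 2 called of 4 tested lie above 0, where 19.4% of all genes were called higher. The lists were chosen with earlier results of these data known.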

How the data were processed

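RNA of 4 NALM6 libraries (2 AICAR, 2 vehicle) was sequenced as single reads of 75 bases on a NextSeq 500 from stranded total RNA libraries, per the labels' protocols. Tools listed, per the submitters' processing notes, were Trimmomatic (0.32), the aligner STAR (2.5.3a), the quantifier RSEM (1.2.31) and DESeq2, on hg19. Annotation and strand settings are not given in the sources used here. Expected counts, as deposited, are estimates per gene and not normalized. In the deposited FPKM values the authors had corrected for transcript length and library depth. The log2 fold changes and q-values are the authors' deposited comparison.

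Expected counts were rounded, filtered with filterByExpr (minimum count 10, total 15), scaled with TMM and tested with edgeR 4.0.16 (R 4.3.3, quasi-likelihood, two-sided, Benjamini-Hochberg over all 13626 genes tested, threshold 0.05). The procedure was also run on simulated data with far fewer changed genes than were called here. That run does not show how scaling or error rates behave in these data. Replicates differed by more than sampling noise (mean chi-square per gene 2.91 for AICAR and 8.35 for vehicle). The alternatives were RLE, upper-quartile or no factors, no filter, at least 10 CPM, limma-voom and limma on FPKM (limma 3.58.1, pseudocounts 0.1 and 1), DESeq2 1.42.0, a replicate block, a threshold of 0.01, protein-coding genes alone, a loess trend on effective length removed (span 0.5), and leaving out each library. Members and lists were chosen with earlier results of these data known. Named genes are the 10 members, the 3 largest called rises and falls of each list at a mean of at least 5 CPM, genes named in advance, and relatives with at least 10 counts. MAPKAP1, MLST8, SGK1, KLF2 and GADD45B were named after their values were seen. Some genes of the lists are counted but not reported here by name. Protein sequences were not used here. Promoters are RefSeq's on GRCh38.p14, not the authors' build. Figures used matplotlib 3.10.9.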

Additional observations from a re-analysis of the deposited data

How the results depend on the processing

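FOXO1, IRS2, CITED2 and CCNG2 kept their direction and their call under every alternative that tested them. Without 1 library the group of that library holds a single sample, which is assumed to vary like the other group, so these calls are a weak check. Leaving out 1 library gave 5 to 7 called members of 10, and 4368 to 5259 called genes in all. In place of 5328 genes, DESeq2 called 3267 and limma on FPKM called 1876 (pseudocount 0.1) or 1892 (pseudocount 1). These counts do not say which genes. As shares of all genes they are 39.1% in the reported fit, 25.8% with DESeq2, and 13.8% and 13.9% on FPKM. A threshold of 0.01 left 26.6% of all genes called. Calls thus fell over all genes under these settings too, and whether the lists below lost more was not tested. In the relay list 20 calls became 12 with DESeq2, 2 with either FPKM fit and 13 at a threshold of 0.01, and 12 to 19 without 1 library. Among genes acting on FOXO 12 calls became 4 with either FPKM fit and 7 at 0.01, and 7 to 12 without 1 library, and among other targets 15 became 9 with either FPKM fit and 14 to 16 without 1 library. The median of the members, -0.281, was -0.341 with total counts alone, -0.231 at 10 CPM or more (5 members), -0.208 and -0.149 on FPKM with pseudocounts 0.1 and 1, -0.175 with the length trend removed, and from -0.328 to -0.231 without 1 library. With total counts alone 69.3% of all calls were lower, and with the length trend removed 35.3%, in place of 50.4%.

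Among the named genes, the signs of 5 that were not called in the reported fit changed. FOXO3 had -0.05 with total counts alone, -0.03 at 10 CPM or more, -0.004 among protein-coding genes, -0.03 without vehicle replicate 2 and -0.01 without AICAR replicate 1. IRS1 had 0.0007 with upper-quartile factors, 0.01 with the length trend removed and from -0.07 to 0.05 without 1 library (0.03 without AICAR replicate 2). PIK3R1 had 0.09 with the length trend removed (adjusted p = 0.0395), IGF1R -0.01 with total counts alone, and CCNG1 0.15 in both FPKM fits, while it was called lower at 10 CPM or more (-0.10, adjusted p = 0.027). The causes were not tested. With a replicate block, 7 members were called in place of 6, since FOXO4 passed (0.34, adjusted p = 0.0477), and 5429 genes in all. The labels do not tie replicate numbers to a shared culture, and the deviations of same-numbered libraries had a correlation of -0.0478 across genes, so the block was not used. PIK3IP1 had at most 21 counts in a library.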

Other observations

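SGK1, a kinase related to AKT that also phosphorylates FOXO3, had 6 and 10 counts in AICAR libraries, against 36 and 38 counts in vehicle libraries (log2 fold change -2.05 ± 0.403 SE, edgeR adjusted p = 0.00194). It was the largest fall in the relay list and is named after its value was seen, since its level of 0.243 CPM with AICAR and 1.03 CPM with vehicle is under the limit set for naming. In the same class of low genes, CITED1, a relative of CITED2, had 12 and 17 counts in AICAR libraries, against 6 and 11 counts in vehicle libraries, and did not pass (log2 fold change 0.90, adjusted p = 0.19).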
